A study of Mus musculus with 6 samples.

Results

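The mesothelium-only interior regions are stretches of the genome inside protein-coding genes that carried acetylation of histone H3 at lysine 27 (H3K27ac) in sorted lung mesothelium and had no called H3K27ac peak in sorted lung epithelium. H3K27ac was mapped by CUT&RUN, an assay in which an antibody brings a nuclease to a chromatin mark so that the DNA around the mark is cut out and sequenced. The peaks of 4 libraries were merged where they overlapped or touched. A merged region was kept when a peak of both mesothelium libraries and of neither epithelium library overlapped it, when it lay more than 2 kb from both ends of every annotated gene, and when its midpoint fell inside a coding gene. Of 132165 merged regions, 68398 lay inside coding genes and away from gene ends, and 1961 of these, 2.87%, met the whole rule. The regions were thus chosen by the presence and absence of peak calls in the 4 libraries. The rule uses the peak calls of both cell types, so the contrast between them over these regions is a description and was not tested. With 2 libraries against 2, no exact test can pass 0.05.

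Lungs were pooled at embryonic stage E16.5 from timed matings of Myrf Fl/Fl mice, animals with a conditional allele of Myrf, and the series text calls the mesothelial cells wildtype. The labels name no Cre driver. Mesothelium was sorted as PDPN+ EPCAM- CD45- CD31- DAPI- cells and had 2 H3K27ac libraries, replicate 1 from 25k cells and replicate 2 from 100k cells by their titles, while the protocol speaks of at least 60k cells. Epithelium was sorted as PDPN+ EPCAM+ cells with the same exclusions of CD45, CD31 and DAPI and had 2 H3K27ac libraries, replicate 1 from 100k cells and replicate 2 from 200k cells. Nothing in the labels says that the 2 libraries of a cell type came from separate animals or litters, so the spread between them may be technical. Another 2 libraries, made from epithelium with a non-specific IgG antibody, were not analysed here.

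The lists held 39006 and 41524 peaks in the mesothelium libraries, against 47869 and 46632 peaks in the epithelium libraries, on chromosomes 1 to 19, X and Y. Read depth is not given in the lists, so a missing peak means only that no interval passed the caller's minimum in that library. The labelled cell types were checked by the length under peaks at gene ends, meaning up to 2 kb to each side of the start and of the end. Wt1, a transcription factor of mesothelium, had 1.65 and 2.39 kb under peaks in mesothelium, against 0 kb in both epithelium libraries. Lrrn4, a mesothelial membrane protein, had 0.536 and 2.33 kb in mesothelium, against 0 kb in both epithelium libraries. Over the 20 mesothelial markers the summed gene-end length was 12.8 and 19.9 kb in mesothelium, against 4.25 and 3.22 kb in epithelium. Over the 36 lung epithelial markers it was 7.42 and 5.77 kb in mesothelium, against 64.8 and 65.1 kb in epithelium. Msln, which encodes mesothelin, went the other way in 1 library, with 0.206 and 0.893 kb in mesothelium, against 0.131 and 2.72 kb in epithelium. Pdpn, the gene of the sort marker shared by both gates, had 0 kb in both mesothelium libraries, against 2.24 and 1.43 kb in epithelium.

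H3K27ac marks active promoters and active enhancers, the DNA elements that raise transcription of a gene from a distance. Many enhancers lie in introns, of the gene they act on or of an unrelated gene that merely contains them, so the gene that hosts a region is an address and not a target. The mesothelium is the flat epithelial sheet of mesodermal origin that covers the lung and lines the chest cavity. In the embryo it secretes signals to the tissue beneath it, and some of its cells can leave the sheet and become mesenchyme.

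A small set of the regions lies over an annotated transcription start inside the gene. Of the 1961 mesothelium-only regions, 43 (2.19%) overlapped a RefSeq promoter window of such an internal start, against 31 epithelium-only regions (1.31%), 145 regions present in all 4 libraries (9.06%) and 62 regions shared by 1 mesothelium and 1 epithelium library (1.46%). These promoters are the only parts of the regions whose sequence was at hand, and the 250 bases before the start site are printed here, 5′ to 3′ on the strand of the gene, from RefSeq annotation of GRCm38.p6, the assembly that mm10 names. Capitals mark matches on either strand to 6 short motifs: GGAATG for TEAD, AGATAA for GATA factors, TGACAG for MEIS, TGANTCA for AP-1, GGGCGGG for KLF/SP and CCAAT for NFY. The Smim10l1 window lies under the region that ranks first by the lower of its 2 mesothelium folds, the Mef2c and Arhgap28 windows under regions of genes described below, and the Arhgap29 window holds the most marked matches of the internal promoters and was chosen after seeing this. The gene-start windows of Arhgap28 and Meis1 belong to genes with many of the regions and lie outside them.
Smim10l1 internal promoter, chr6:133104989-133105238, plus strand: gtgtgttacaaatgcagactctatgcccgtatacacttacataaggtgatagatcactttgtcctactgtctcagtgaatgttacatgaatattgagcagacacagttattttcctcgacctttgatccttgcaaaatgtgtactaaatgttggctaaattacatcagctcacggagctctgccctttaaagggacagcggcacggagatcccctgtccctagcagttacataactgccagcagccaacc
Mef2c internal promoter, chr13:83573357-83573606, plus strand: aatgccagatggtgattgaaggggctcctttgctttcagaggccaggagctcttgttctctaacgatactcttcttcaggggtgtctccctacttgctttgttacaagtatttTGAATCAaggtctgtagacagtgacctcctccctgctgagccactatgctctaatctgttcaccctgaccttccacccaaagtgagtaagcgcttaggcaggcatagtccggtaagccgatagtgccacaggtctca
Arhgap28 internal promoter, chr17:67950941-67951190, minus strand: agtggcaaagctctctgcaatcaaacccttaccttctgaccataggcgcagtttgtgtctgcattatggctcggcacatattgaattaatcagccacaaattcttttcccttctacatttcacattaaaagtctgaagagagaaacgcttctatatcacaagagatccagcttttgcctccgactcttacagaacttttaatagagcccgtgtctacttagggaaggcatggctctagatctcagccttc
Arhgap28 gene-start promoter, chr17:68004109-68004358, minus strand: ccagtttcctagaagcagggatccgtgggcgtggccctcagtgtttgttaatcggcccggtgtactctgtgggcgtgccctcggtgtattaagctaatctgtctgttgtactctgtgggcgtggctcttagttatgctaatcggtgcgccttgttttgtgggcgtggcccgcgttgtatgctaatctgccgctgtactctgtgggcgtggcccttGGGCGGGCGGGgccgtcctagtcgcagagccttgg
Arhgap29 internal promoter, chr3:121967556-121967805, plus strand: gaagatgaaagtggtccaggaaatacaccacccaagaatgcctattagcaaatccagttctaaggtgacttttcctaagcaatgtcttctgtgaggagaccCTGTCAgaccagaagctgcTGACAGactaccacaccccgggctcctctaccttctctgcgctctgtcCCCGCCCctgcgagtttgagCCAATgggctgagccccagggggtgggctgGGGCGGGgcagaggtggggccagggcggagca
Meis1 gene-start promoter, chr11:19018970-19019219, minus strand: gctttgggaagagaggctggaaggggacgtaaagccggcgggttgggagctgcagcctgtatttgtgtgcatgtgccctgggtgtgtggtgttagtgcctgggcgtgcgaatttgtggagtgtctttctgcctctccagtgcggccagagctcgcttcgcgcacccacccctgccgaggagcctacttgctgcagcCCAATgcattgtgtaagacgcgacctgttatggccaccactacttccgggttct
No marked motif is in the Smim10l1 window or in the internal Arhgap28 window, which says only that these letters are not there. The Mef2c window holds 1 AP-1 match, the Arhgap29 window 2 MEIS, 2 KLF/SP and 1 NFY matches, the Arhgap28 gene-start window 2 KLF/SP matches that overlap each other, and the Meis1 window 1 NFY match. Among all 32817 promoter windows of the same length, 12.6% hold the TEAD motif, 9.99% GATA, 15.9% MEIS, 6.75% AP-1, 23.4% KLF/SP and 33.8% NFY. Among the 55 windows under the 43 regions, some of which overlap one another, the shares were 9.09% for TEAD, 10.9% for GATA, 12.7% for MEIS, 5.45% for AP-1, 21.8% for KLF/SP and 27.3% for NFY. Each of these 6 shares differed from that of all windows by a few windows at most.

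The number of mesothelium-only regions was set against the 4 ways in which 1 mesothelium library can share a region with 1 epithelium library alone. These crossed patterns mix the cell types and show how often any 2 of the lists share a region. Interior regions of a crossed pattern numbered 1188, 957, 1021 and 1095, a mean of 1065 ± 99.4 (SD, n = 4 patterns). The 1961 mesothelium-only regions were 1.84 times that mean and lay above each of the 4 patterns. The 2358 epithelium-only interior regions were 2.21 times it. The patterns share libraries and are not independent, so no test was made of this ratio. Regions with a peak in 1 library only were far more numerous, with 12094 and 13307 in mesothelium, against 15101 and 14638 in epithelium.

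**Figure D1:**
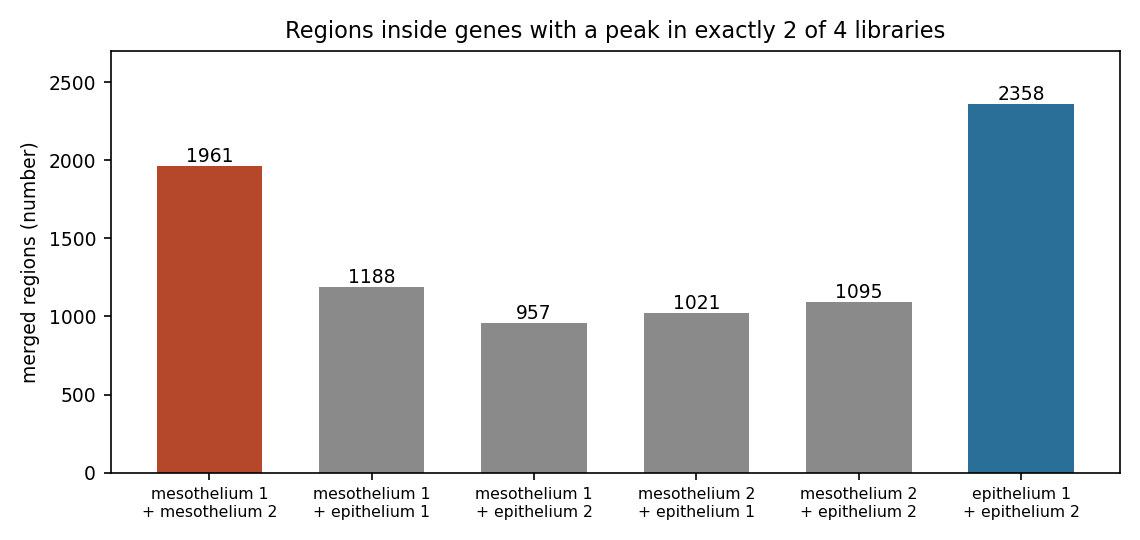
Number of merged regions (vertical axis) inside coding genes and more than 2 kb from gene ends that had a peak in exactly 2 of the 4 libraries (horizontal axis). The 1961 mesothelium-only regions (left, red) and the 2358 epithelium-only regions (right, blue) exceed the 4 crossed patterns (grey), which hold 957 to 1188 regions.

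Position inside genes was not particular to the mesothelium-only pattern. Of all 3445 mesothelium-only regions, which were 2.61% of the merged regions, 56.9% met the interior rule. The share was 53.8% for epithelium-only regions, 60.3% for crossed patterns and 37.4% for regions present in all 4 libraries. The distance from a mesothelium-only interior region to the nearest gene end had a median of 19.1 kb, with quartiles of 9.10 and 37.8 kb. Along the gene, where its strand was known (77.9% of the regions), the median position was 49.8% of the way from start to end, with 23.2% of the regions in the first 25% of the gene and 21.5% in the last 25%. Regions in all 4 libraries had 25.8% in the first 25% and 14.5% in the last 25%.

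The regions were short and their enrichment was low. Their median width was 1588 bp (quartiles 1095 and 2289, range 372 to 8480), against 1601 bp for epithelium-only regions, 1353 bp for crossed patterns and 3649 bp for regions in all 4 libraries, and together they spanned 3.55 Mb. Regions wider than 3 kb numbered 206, and 29 were wider than 5 kb. The deposited fold enrichment of their peaks over the caller's background had a median of 3.63 in mesothelium replicate 1 and 3.78 in replicate 2. The deposited −log10 q had a median of 1.75 in replicate 1 and 2.10 in replicate 2, close to the 1.70 and 2.00 of all interior peaks of the same libraries. In 406 regions both mesothelium peaks had a −log10 q of 2 or more, and in 1 region, in Smim10l1, both had 4 or more. Values repeat at the low end: 154 regions (7.85%) carried the same fold of 3.29 and −log10 q of 1.32 in replicate 1, and 107 (5.46%) the same 3.41 and 1.57 in replicate 2. Over all peaks of each library these pairs made up 12% in replicate 1 and 10.1% in replicate 2.

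The rule fixes that both mesothelium libraries have a peak, and the size of the 2 peaks was only weakly related. Each library gave a single peak in 1928 of the 1961 regions. The stretch under peaks of both libraries had a median of 449 bp, which was 0.319 of the stretch under either (quartiles 0.183 and 0.510), and in 509 regions (26%) it was at least 0.5. Across regions, fold enrichment in the 2 libraries had a Spearman rank correlation of 0.0947 and a Pearson r of 0.0988, and covered length a rank correlation of 0.114 and an r of 0.181. Regions in all 4 libraries had a rank correlation of 0.154 for fold enrichment and 0.300 for covered length between the same libraries. These are descriptions across regions, which share their libraries. Peaks of the other cell type were often close: 366 regions (18.7%) had an epithelial peak within 1 kb and 1119 (57.1%) within 5 kb, with a median distance of 4.02 kb, and epithelium-only regions lay a median of 4.42 kb from a mesothelial peak.

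**Figure D2:**
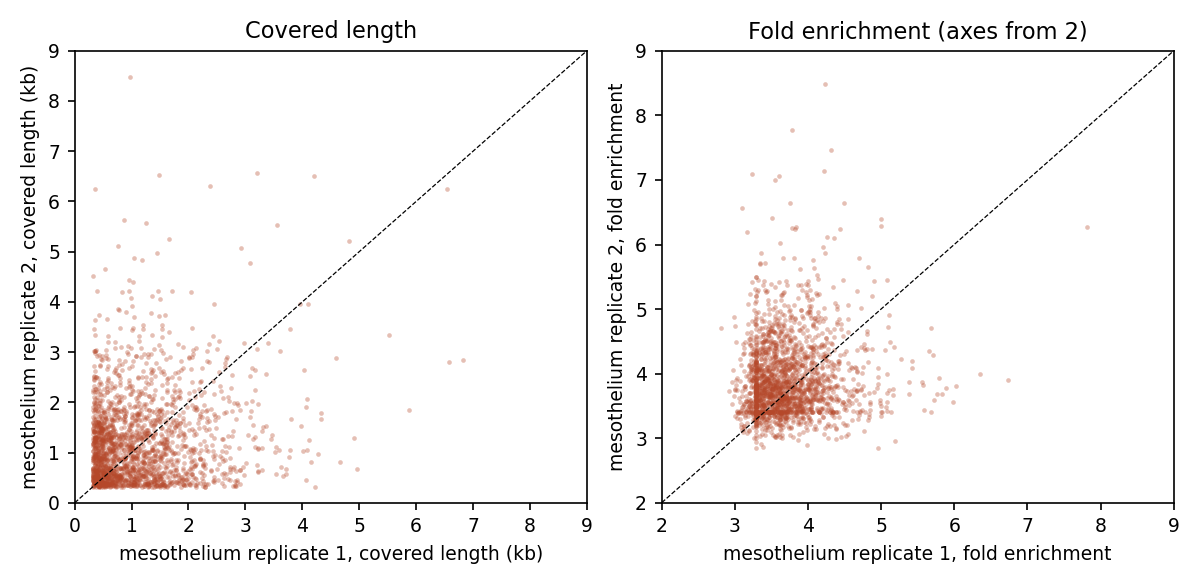
Covered length in kb (left) and deposited fold enrichment (right, axes from 2) of the 1961 mesothelium-only interior regions in mesothelium replicate 1 (horizontal axis) and replicate 2 (vertical axis), 1 point per region, with the line of equality dashed. The points form a cloud with a rank correlation of 0.114 for covered length and 0.0947 for fold enrichment, and the region in Smim10l1 stands alone at 7.82 and 6.26.

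Hosts were longer than coding genes at large. The regions fell in 1347 of 21887 coding genes, 6.15%, and 11 regions lay in overlapping host genes. The median host was 99.8 kb long, against 17.2 kb for all coding genes, and of 2429 coding genes over 100 kb, 670 (27.6%) were hosts. The share of genes that host a region was 0.321% under 20 kb, 4.77% from 20 to 50 kb, 15.7% from 50 to 100 kb, 25.3% from 100 to 200 kb and 30.9% above 200 kb. Crossed patterns showed the same order of classes, with 0.253% to 0.371% in the shortest class, a range that holds the mesothelium-only share, and 19.5% to 22.2% in the longest, and epithelium-only regions reached 36.0% in the longest. The share thus climbed with gene length for each pattern, and counts over genes are read against the crossed patterns.

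**Figure D3:**
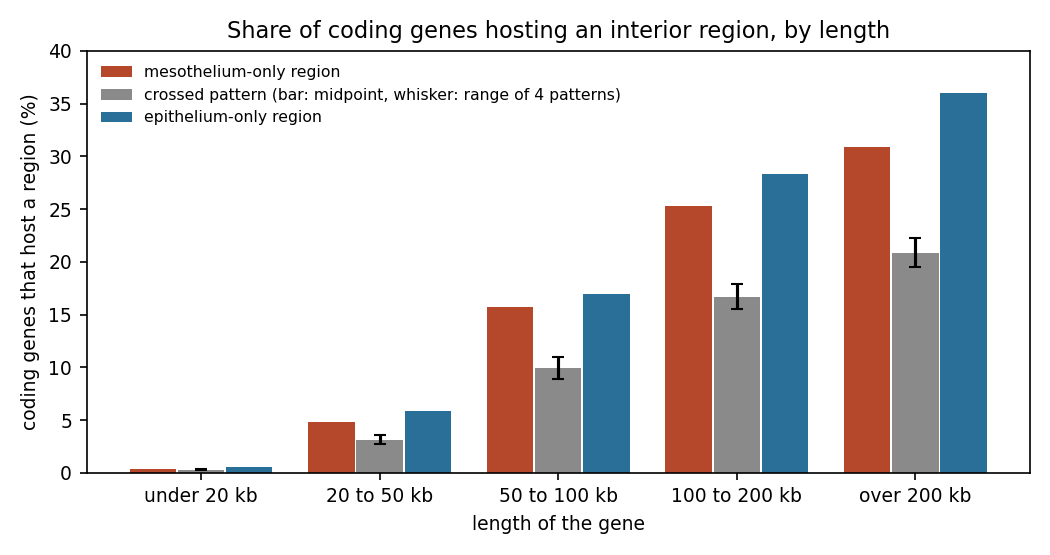
Share of coding genes in percent (vertical axis) that host a mesothelium-only (red), crossed (grey, whiskers give the range of the 4 patterns) or epithelium-only (blue) interior region, by gene length (horizontal axis). All 3 shares climb with length, to 30.9%, 19.5% to 22.2% and 36.0% above 200 kb.

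Many hosts held several mesothelium-only regions. Of the 1347 hosts, 984 held 1 mesothelium-only region, 236 held 2, 72 held 3 and 55 held at least 4, so that 26.9% held more than 1, against 14.2% to 17.9% of the hosts of each crossed pattern and 28% of the 1554 hosts of epithelium-only regions, which were 7.1% of coding genes. At least 6 regions were found in 21 hosts, against 0 or 1 host for each crossed pattern and 26 hosts for epithelium-only regions. A pattern with more regions also meets the same gene more often, and these counts were not adjusted for the 1.84 times larger number of mesothelium-only regions. The highest number in a gene was 11, against 5 to 7 for the crossed patterns and 15 for epithelium-only regions. Neighbouring regions of the same host lay a median of 22.1 kb apart, and 171 of the 625 gaps (27.4%) were under 10 kb. Epithelium-only regions were also present in 392 of the hosts, which is 29.1% of the mesothelium-only hosts and 25.2% of the epithelium-only hosts.

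The rest of the host gene, outside all mesothelium-only and epithelium-only interior regions, was measured as the length under peaks in each library. Among 14024 coding genes with a peak there, both mesothelium libraries exceeded both epithelium libraries in 16.45% and the reverse held in 16.24%. Among hosts of a mesothelium-only region the mesothelium libraries were longer in 406 of 1336 (30.4%), and the epithelium libraries in 200 (15.0%). Among hosts of at least 2 regions the shares were 45.2% and 9.92%, and among the 55 hosts of at least 4 they were 69.1% and 1.82%. Hosts of crossed regions gave 18.7% and 21.9%, and hosts of epithelium-only regions 14.1% and 36.5%. The 4 libraries are those that chose the regions, so these shares are given as a description. The gene-body lengths of single genes include the regions themselves, whose contrast the rule fixes. Both mesothelium libraries exceeded both epithelium libraries over the whole body in 61 of the 79 genes chosen for naming, and outside the regions in 45 of them. The 16 genes that no longer did so include Rad51b, Rgl1, Sema3c, Pecam1, Actn4, Myh10, Dcn, Dkk3, Il16, Pemt and Smim10l1.

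Meis1 had the shortest length under epithelial peaks, in kb and not as a share of the gene, among the 10 genes with the most regions. Meis1 encodes a homeodomain protein that binds DNA together with HOX proteins, and its 139 kb body (chr11:18880428-19019651, mm10) held 7 regions. Peaks covered 38.0 and 40.4 kb of the gene in mesothelium, against 1.68 and 1.79 kb in epithelium. Its widest region, chr11:18941147-18947789, was covered over 4.81 and 5.22 kb in the 2 mesothelium libraries, with folds of 3.47 and 4.04. In 2 of the 7 regions the mesothelium peaks barely met, with 0.006 and 0.078 kb in common. At the ends of Meis1 peaks covered 1.12 and 3.82 kb in mesothelium, against 0 kb in both epithelium libraries, and its nearest coding neighbours, Etaa1 and Spred2, lay 958 and 919 kb from its outermost regions and hosted none.

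Phactr2, whose product binds actin and protein phosphatase 1, held 11 regions over 175 kb of its 267 kb. Peaks covered 33.8 and 48.2 kb of the gene in mesothelium, against 12 and 11.3 kb in epithelium, and 4 further regions of Phactr2 were present in all 4 libraries. Ptprd, a receptor-type tyrosine phosphatase gene of 2271 kb, also held 11 regions, with 33.0 and 58.3 kb in mesothelium, against 9.87 and 9.94 kb in epithelium. Neither gene held an epithelium-only interior region, and the mesothelium libraries did not overlap the epithelium libraries in either.

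Arhgap28, which encodes a GTPase-activating protein, held 9 regions, and peaks covered 28.6 and 32.3 kb of its 161 kb in mesothelium, against 4.11 and 2.07 kb in epithelium. The region over its internal start, chr17:67948950-67951738, was among the 10 whose mesothelium peaks coincided best, with 2.64 and 2.79 kb covered and 2.64 kb in common. Its gene ends had 1.75 and 2.04 kb in mesothelium, against 0 and 0.616 kb in epithelium. Tspan5, a tetraspanin of the subgroup that escorts the protease ADAM10 to the cell surface, held 7 regions and no interior region of an epithelium-only, crossed or all-library pattern. Peaks covered 16.3 and 29.2 kb of Tspan5 in mesothelium, against 3.28 and 2.88 kb in epithelium. Adam10 itself, the gene of that protease, held 7 regions as well, with 16.6 and 20.4 kb in mesothelium, against 3.88 and 4.55 kb in epithelium, and is named after its values were seen because it tied with the tenth gene of the ranking.

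Tgfbr3 encodes betaglycan, a co-receptor that presents TGF-beta, and held 8 regions. Peaks covered 22.1 and 22.6 kb of its 183 kb in mesothelium, against 5.16 and 7.69 kb in epithelium, while its gene ends had no peak in any library. The other 4 of the 10 genes also held epithelium-only regions. Rad51b, a gene of homologous recombination repair, held 10 mesothelium-only and 3 epithelium-only regions, with 62.5 and 67.9 kb in mesothelium, against 61.9 and 46.3 kb in epithelium. Outside those regions Rad51b had 46.1 and 45.8 kb in mesothelium, against 58.8 and 42.0 kb in epithelium, so the libraries overlapped there. Rbms3, an RNA-binding protein gene of 1057 kb, held 8 and 2 regions, with 41.1 and 45.3 kb in mesothelium, against 28 and 30.7 kb in epithelium. Rgl1, which encodes an exchange factor for RAL GTPases, held 7 and 1, with 18.8 and 17.4 kb in mesothelium, against 3.64 and 7.01 kb in epithelium. Outside those regions Rgl1 had 6.33 and 3.41 kb in mesothelium, against 3.13 and 5.99 kb in epithelium, which also overlap. The ends of Rgl1 went the other way, with 0.490 and 0.504 kb in mesothelium, against 0.888 and 0.618 kb in epithelium. Tasp1, the gene of the protease that cleaves MLL, held 7 and 2, with 26.03 and 21.0 kb in mesothelium, against 10.1 and 11.9 kb in epithelium.

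**Figure D4:**
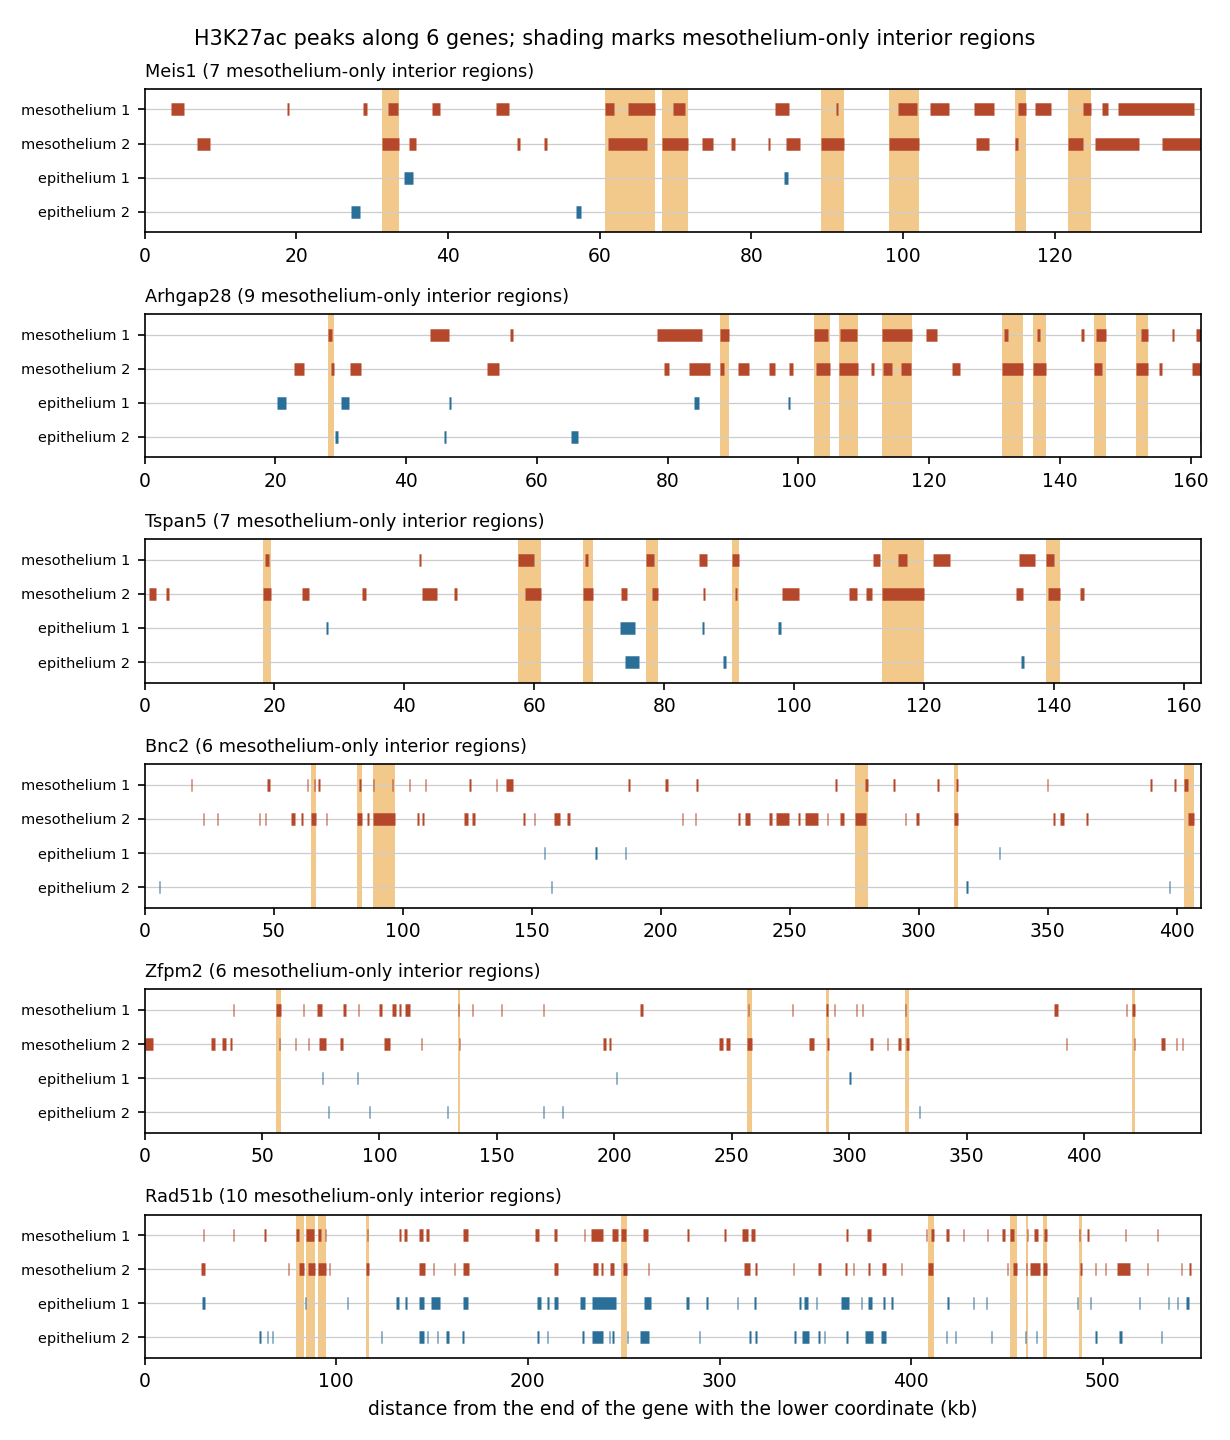
Peaks of the 4 libraries (mesothelium red, above; epithelium blue, below) along 6 genes, with the distance in kb from the end of the gene with the lower coordinate on the horizontal axis and mesothelium-only interior regions shaded. Meis1, Arhgap28, Tspan5, Bnc2 and Zfpm2 have few epithelial peaks, while Rad51b has 61.9 and 46.3 kb of them beside its 10 regions.

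Host counts of gene lists are given beside those of the epithelium-only and crossed regions, and each is to be read against the 6.15% of all coding genes that were hosts and against the smaller number of regions in a crossed pattern. Among 20 mesothelial markers, 5 hosted a region (25.0%), with 13 regions in all, against 1 host of an epithelium-only region and 0 to 3 hosts for the crossed patterns. With only peaks of −log10 q of at least 2, this count fell to 2 hosts. Bnc2 and Bnc1 encode the basonuclins, zinc-finger proteins, of which BNC1 is used as a mesothelial marker. Bnc2 held 6 regions, and peaks covered 18.9 and 54.8 kb of its 409 kb in mesothelium, against 1.99 and 1.77 kb in epithelium. The gap between the mesothelium libraries was wide in Bnc2, where the widest of all regions, chr4:84355283-84363762, had 0.976 kb in replicate 1 and 8.48 kb in replicate 2. Bnc1 held 2 regions, chr7:81983354-81985539 and chr7:81988395-81989982, in 25.6 kb, with 3.06 and 4.69 kb of the gene covered in mesothelium, against 0 kb in both epithelium libraries.

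Aldh1a2, which makes retinoic acid from retinal, held 2 regions, with 2.18 and 7.27 kb of the gene covered in mesothelium, against 0 kb in both epithelium libraries. Gpm6a, a membrane glycoprotein gene, held 1 region, with 4.89 and 11.6 kb covered in mesothelium, against 0 kb in both epithelium libraries. Cdh11, a cadherin of mesenchymal and mesothelial cells, held 2 regions, with 8.86 and 16.9 kb in mesothelium, against 1.5 and 0.749 kb in epithelium. In all 5 genes the mesothelium libraries lay above the epithelium libraries, and replicate 2 lay above replicate 1. These lengths include the regions, whose contrast the rule fixes. Outside the regions both orders held in all 5 genes. Longer mesothelium libraries there were found in 16.45% of all coding genes, 30.4% of hosts and 45.2% of hosts of at least 2 regions. The same libraries made these 5 genes hosts, so the orders are a description. Among the 5 genes the shortest lengths outside the regions were in Bnc1, with 0.324 and 2.52 kb in mesothelium, against 0 kb in both epithelium libraries. At the ends of Bnc1, Bnc2 and Aldh1a2 no library had a peak, so for these 3 genes the interior peaks were the only ones called. Wt1, Msln, Upk3b and Lrrn4 hosted no region.

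Transcription factors of the mesoderm gave 9 hosts of 42 (21.4%) and 31 regions, against 6 hosts and 11 epithelium-only regions and 3 to 7 hosts for the crossed patterns. Meis1 led with 7 regions. Zfpm2, which encodes FOG2, a cofactor of GATA proteins, held 6, with 21.8 and 35.6 kb of the gene covered in mesothelium, against 2.11 and 2.70 kb in epithelium. Tbx5, a T-box factor of heart and lung development, held 1 region, chr5:119837169-119841442, with 7.85 and 12.7 kb of the gene covered in mesothelium, against 0 kb in both epithelium libraries. Mef2c, a MADS-box factor of muscle and vessels, held 3, with 7 and 5.77 kb in mesothelium, against 0.536 and 0.850 kb in epithelium, and its middle region lies over the internal start printed above with folds of 4.74 and 4.02. Runx1t1, a corepressor gene, held 1, with 4.12 and 9.80 kb of the gene body in mesothelium, against 0 kb in both epithelium libraries. At its gene ends peaks covered 0.638 and 0.895 kb in mesothelium, against 0.528 and 0 kb in epithelium.

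The other hosts among these factors carried peaks in both cell types. Nfib, a nuclear factor I gene needed for lung maturation, held 5 mesothelium-only regions and 1 epithelium-only region, with 74.4 and 55.1 kb in mesothelium, against 56.1 and 37.2 kb in epithelium, so that 1 epithelium library lay above 1 mesothelium library. Nfia, a relative of Nfib, held 2 and 4, with 71.3 and 45.7 kb in mesothelium, against 33.4 and 28.2 kb in epithelium. Gata6, a zinc-finger factor of lung epithelium and mesoderm, held 1 of each kind, with 4.86 and 9.45 kb in mesothelium, against 11 and 8.60 kb in epithelium, and its libraries overlapped. Of 24 HOX genes, which have a median length of 4.42 kb, Hoxb3 alone was a host, with 2 regions and 17.5 and 18.4 kb covered in mesothelium, against 0.480 and 0.488 kb in epithelium.

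Matrix genes gave 13 hosts of 36 (36.1%) with 23 regions, against 10 hosts with 19 epithelium-only regions and 6 to 7 hosts for the crossed patterns. Fbn1 encodes fibrillin, the backbone of elastic microfibrils, and held 4 regions, with 23.7 and 25.9 kb covered in mesothelium, against 3.03 and 3.13 kb in epithelium. Col14a1, a collagen that associates with fibrils, held 5, with 14.1 and 14.5 kb in mesothelium, against 3.36 and 2.30 kb in epithelium, and 1 of them, chr15:55377498-55379405, was among the 10 most enriched, at folds of 4.82 and 5.66. Col5a1, a fibril-forming collagen, held 2, with 11.6 and 8.11 kb in mesothelium, against 0.899 and 1.07 kb in epithelium. Ltbp1, which holds latent TGF-beta in the matrix, held 3 mesothelium-only and 2 epithelium-only regions, with 20.7 and 11.2 kb in mesothelium, against 13.5 and 16.7 kb in epithelium, which overlap.

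Genes of actin, adhesion and their regulators gave 9 hosts of 32 (28.1%) and 16 regions, against 13 hosts and 23 epithelium-only regions and 6 to 9 hosts for the crossed patterns. The count for this list thus lay within the crossed range. Itgb1, the beta subunit common to many integrins, held 2 regions, with 6.43 and 8.90 kb in mesothelium, against 2.41 and 2.57 kb in epithelium. Dlc1, a GTPase-activating protein gene, held 4, with 28.6 and 19.4 kb in mesothelium, against 10.8 and 10.7 kb in epithelium. Myh10, a non-muscle myosin, held 2, with 10.9 and 14.3 kb in mesothelium, against 10.1 and 4.35 kb in epithelium, and Actn4, an actin crosslinker, held 2, with 21.1 and 19.5 kb in mesothelium, against 13.3 and 19.5 kb in epithelium.

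The hedgehog pathway, in which a secreted ligand from the epithelium is read by the mesenchyme and mesothelium of the lung, gave 6 hosts of 16 (37.5%) and 15 regions, against 4 hosts and 7 epithelium-only regions and 1 to 3 hosts for the crossed patterns. The ligand genes Shh, Ihh and Dhh hosted none. Of the proteins at the membrane, Hhip, a decoy that binds the ligand, held 4 regions within 27 kb, with 9.10 and 13.1 kb of the gene covered in mesothelium, against 1.84 and 1.97 kb in epithelium. Boc, a co-receptor, held 2, with 5.85 and 8.39 kb in mesothelium, against 1.47 and 1.14 kb in epithelium. Disp1, needed to release the ligand, held 2, with 8.67 and 10.8 kb in mesothelium, against 7.32 and 3.15 kb in epithelium.

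Of the hedgehog transcription factors, Gli2, the main activator, held 3 regions, with 9.89 and 16.3 kb in mesothelium, against 0 and 0.393 kb in epithelium. A Gli2 region at chr1:119033046-119034886 had folds of 3.76 and 6.64. Gli3, the main repressor, held 3 mesothelium-only and 4 epithelium-only regions, with 21.5 and 21.2 kb in mesothelium, against 24.9 and 11.1 kb in epithelium. Sufu, which restrains the GLI proteins, held 1, with 11.2 and 8.14 kb in mesothelium, against 16.8 and 7.67 kb in epithelium. Over gene bodies, which include the regions, Gli2 and the membrane genes Hhip, Boc and Disp1 were longer in both mesothelium libraries, while Gli3 and Sufu overlapped. Outside the regions Gli2, Hhip and Boc were still longer in both mesothelium libraries, and Disp1 is not given there.

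TGF-beta and BMP genes gave 9 hosts of 32 (28.1%) and 20 regions, against 5 hosts and 6 epithelium-only regions and 4 to 6 hosts for the crossed patterns. Beside Tgfbr3 and Ltbp1, the type I receptor gene Bmpr1a held 1 region, chr14:34493211-34497653, with folds of 5.17 and 4.42, and 19.7 and 19.5 kb of the gene covered in mesothelium, against 9.32 and 9.24 kb in epithelium. Smad5, which carries BMP signals to the nucleus, held 1, with 6.25 and 2.78 kb in mesothelium, against 3.26 and 1.83 kb in epithelium. Tgfbr3 alone held 8 of the 20 regions.

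Retinoic acid genes gave 5 hosts of 18 (27.8%) and 6 regions, against 2 hosts of epithelium-only regions and 1 to 2 for the crossed patterns. Beside Aldh1a2 they included Aldh1a1 with 1 region and the receptors Rarb and Rxra with 1 region each, whose covered lengths overlapped between cell types. WNT genes gave 5 hosts of 33, against 9 of epithelium-only regions and 3 to 7 of crossed patterns. Dkk3, a secreted protein related to WNT antagonists, held 1 region, with 5.17 and 0.940 kb of the gene body in mesothelium, against 0 kb in both epithelium libraries. Outside its region the mesothelium libraries had 2.74 and 0 kb. The gene ends of Dkk3 went the other way, with 0 kb in both mesothelium libraries, against 0.353 and 0 kb in epithelium. Tcf7l2, a nuclear effector of WNT, held 2, with 7.45 and 6.79 kb in mesothelium, against 0.337 and 1.11 kb in epithelium. Rspo2, an enhancer of WNT signalling, held 1, with 10.02 and 11.4 kb in mesothelium, against 2.60 and 5.41 kb in epithelium. Ror1, a WNT5A receptor gene, held 3 and overlapped.

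Hippo genes gave 5 hosts of 22, against 3 of epithelium-only regions and 4 to 7 of crossed patterns, led by the kinase gene Stk3 with 4 regions and 16.3 and 21.0 kb in mesothelium, against 9.95 and 8.21 kb in epithelium. Tead1, the DNA-binding partner of YAP, held 3 mesothelium-only and 5 epithelium-only regions, with 17.1 and 31.4 kb in mesothelium, against 33.2 and 36.3 kb in epithelium, so peaks were longer in epithelium there. FGF genes gave 2 hosts of 22, against 5 of epithelium-only regions and 0 to 1 of crossed patterns. Frs2, the adaptor of FGF receptors, held 3 regions, with 14.5 and 15.1 kb in mesothelium, against 2.62 and 2.65 kb in epithelium. The ligand gene Fgf2 held 1, with 3.32 and 5.97 kb in mesothelium, against 0 and 0.836 kb in epithelium. Notch genes gave 1 host of 19, Notch2, against 4 hosts of epithelium-only regions and 1 to 3 of crossed patterns. Vascular ligand and receptor genes gave 3 of 19, Pdgfc, Tek and Nrp2, against 3 hosts of epithelium-only regions and 1 to 3 of crossed patterns.

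Axon guidance genes, which also steer cell movement outside the nervous system, have a median length of 197 kb and gave 11 hosts of 27 (40.7%), equal to the 11 hosts of epithelium-only regions and above the 4 to 9 of the crossed patterns. The class 3 semaphorins, secreted guidance ligands, led the list. Sema3d held 3 regions, with 7.80 and 18.2 kb in mesothelium, against 1.19 and 2.55 kb in epithelium. Sema3c held 4, with 9.16 and 12.1 kb in mesothelium, against 3.75 and 6.95 kb in epithelium, but outside its regions it had 4.65 and 7.22 kb in mesothelium, against 3.75 and 6.95 kb in epithelium, which overlap. Gene ends of Sema3c were longer in epithelium, at 2.55 and 1.68 kb, against 1.31 and 1.12 kb in mesothelium. Sema3a held 3, with 24.2 and 19.0 kb in mesothelium, against 16.3 and 19.2 kb in epithelium, which overlap. The netrin receptor gene Unc5b held 1, with 1.27 and 4.77 kb in mesothelium, against 0 kb in both epithelium libraries.

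Lists of other cell types gave few hosts. None of 36 lung epithelial, 20 blood cell or 14 neural markers hosted a mesothelium-only region, whereas 6 of the epithelial markers hosted 14 epithelium-only regions. Crossed patterns gave 0 to 2 hosts among the epithelial markers and 0 among the blood and neural markers, and these genes are short, with median lengths of 6.21 kb for the epithelial, 16.4 kb for the blood and 20.5 kb for the neural list. With a peak in 1 mesothelium library sufficing, 3 to 5 epithelial, 2 blood and 3 to 4 neural markers were hosts. Myrf and its partner genes Myrfl and Tmem98 hosted no mesothelium-only region, while Myrf held 1 epithelium-only region. Peaks covered 0 and 1.53 kb of Myrf in mesothelium, against 1.49 and 1.23 kb in epithelium, which overlap. Of 20 endothelial markers 2 were hosts, although the gate excluded CD31+ cells. Pecam1, the gene of CD31, held 2 regions, with 4.36 and 1.53 kb in mesothelium, against 0.325 and 0.923 kb in epithelium, and no peak at its ends in any library. Outside its regions Pecam1 had 3.52 and 0.575 kb in mesothelium, against 0.325 and 0.923 kb in epithelium, which overlap. Tek, the angiopoietin receptor gene, held 2, with 2.08 and 2.96 kb in mesothelium, against 0 kb in both epithelium libraries, and its region chr4:94802539-94804193 had folds of 4.91 and 5.43. Over the endothelial list, gene ends summed to 2.03 and 1.17 kb in mesothelium, against 1.12 and 2.33 kb in epithelium. A gene-end peak in any library was found in 7 of the 20 genes. Of these 7, 1 was longer in both mesothelium libraries and 1 in both epithelium libraries. Genes without a gene-end peak in mesothelium included Cdh5, Cldn5 and Sox17.

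Fibroblast and smooth muscle markers gave 2 hosts of 24 (8.33%), near the 6.15% of all coding genes, against 0 for epithelium-only regions and 0 for each crossed pattern. With only peaks of −log10 q of at least 2, 1 host remained. Gucy1a1, a guanylate cyclase subunit gene, held 2 regions, with 5.15 and 7.04 kb in mesothelium, against 1.57 and 1.44 kb in epithelium, and Dcn, which encodes the proteoglycan decorin, held 1, with 3.03 and 2.83 kb in mesothelium, against 1.91 and 0.353 kb in epithelium. The list's gene ends summed to 6.27 and 10.9 kb in mesothelium, against 0.980 and 1.82 kb in epithelium, and 5 of the 12 genes with a gene-end peak were longer in both mesothelium libraries. Other genes of the list, among them Pdgfra, Acta2, Des and Myh11, had no gene-end peak in mesothelium. The gate of PDPN+ EPCAM- cells does not by itself exclude other podoplanin-positive mesenchyme, and the part of such cells in the mesothelium-only regions was not tested. Of 16 striated muscle markers Ryr2 alone was a host, with 5.10 and 10.8 kb in mesothelium, against 6.46 and 9.56 kb in epithelium.

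**Figure D5:**
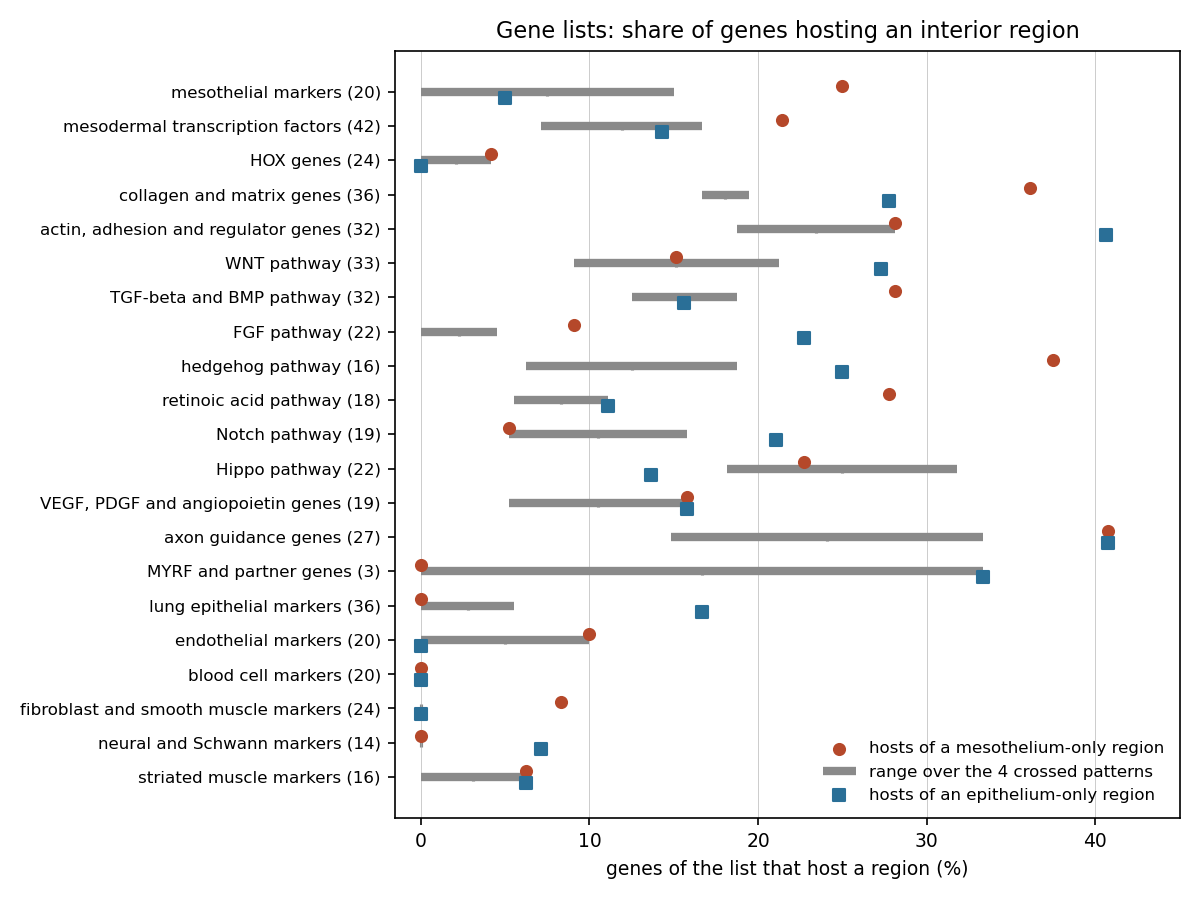
Share of the genes of 21 lists in percent (horizontal axis; list size in brackets) that host a mesothelium-only region (red circles), a region of a crossed pattern (grey bar, range of 4 patterns) or an epithelium-only region (blue squares). Mesothelial markers, mesodermal transcription factors, matrix genes, axon guidance genes and fibroblast markers lie above their crossed ranges. So do the hedgehog, TGF-beta and BMP, retinoic acid and FGF pathways, while a crossed pattern holds fewer regions in all. Fibroblast markers (8.33%) and the FGF pathway (9.09%) are near the 6.15% of all coding genes that were hosts. Lung epithelial markers are at 0 for mesothelium-only regions.

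The most enriched regions were mostly in genes outside the lists. The region over the internal start of Smim10l1, chr6:133104987-133105716, had folds of 7.82 and 6.26 and −log10 q of 9.05 and 6.46 in the 2 mesothelium libraries, over 0.730 and 0.403 kb. Next by the lower of the 2 folds came Sf3b3, a splicing factor gene, at 5.08 and 5.45, Rps6ka5, a kinase gene, at 5.00 and 6.29, and Stard13, a GTPase-activating protein gene, at 4.99 and 6.40. Tek, Bace1, Pigu, Col14a1 and Lrrfip2 followed, with lower folds of 4.72 to 4.91. Smim10l1 stood apart from this group, whose lower folds spanned only 4.72 to 5.08.

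The longest regions by the shorter of their 2 covered lengths included several with higher enrichment in replicate 2. Ninl, which encodes a centrosomal protein, held a region at chr2:150996686-151005012 with 6.54 and 6.25 kb covered and folds of 4.23 and 5.88. Il16, a cytokine gene, held one at chr7:83736761-83743267 with 4.21 and 6.51 kb and folds of 4.70 and 5.79. Pemt, an enzyme gene of phosphatidylcholine synthesis, held one with 3.55 and 5.53 kb and folds of 4.15 and 5.24. In Ninl peaks covered 10.3 and 15.9 kb of the gene in mesothelium, against 1.64 and 2.45 kb in epithelium, and in Il16 they covered 7.79 and 11.3 kb, against 1.98 and 0 kb. The others were in Meis1, Arhgap10, Rad51b, Kif13b, Rnf216, Ttll5 and Nars2.

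The ends of the host genes, sequence that the rule left out, were then compared over the 12110 coding genes with a gene-end peak in any library. Hosts were chosen by the same 4 libraries and the same contrast, so these shares are a description and not an independent check. Both mesothelium libraries had a longer gene-end length than both epithelium libraries in 17.6% of these genes and a shorter one in 10.1%. Among the 1147 hosts with a gene-end peak the shares were 24.8% and 9.85%, among hosts of at least 2 regions 27.9% and 7.69%, and among the 49 hosts of at least 4 regions 30.6% and 8.16%. Hosts of crossed regions gave 20.5% and 12.3%, and hosts of epithelium-only regions 13.6% and 18.2%. Gene-end peaks present in both mesothelium libraries and absent from both epithelium libraries were found in 106 hosts (7.87%), against 3.15% of all coding genes, while peaks in all 4 libraries were found in 27.4% of hosts, against 13.6%. The same 2 shares were 5.07% and 28.5% for hosts of crossed regions, and 3.41% and 23.6% for hosts of epithelium-only regions. No peak at either end was found in any library in 200 hosts (14.8%), against 44.7% of all coding genes. The share was 15.2% for hosts of crossed regions and 18.1% for hosts of epithelium-only regions. Tgfbr3, Bnc1, Bnc2 and Tbx5 were among the 200 hosts. Host and non-host genes differ in length, and no value here was adjusted for it.

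The thresholds of the rule cut through a continuous range. The regions closest to the 2 kb limit on its inner side were in Hoxb3 at 2.02 kb, Osbpl2 at 2.03 kb and Eif2ak1 at 2.06 kb from a gene end, and those just outside it were in Phf12 at 1.99 kb, Arl8b at 1.98 kb and Rufy3 at 1.98 kb. The weakest peak that made a region a member was in Mindy4, with a −log10 q of 1.43 in replicate 1 and 1.04 in replicate 2.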

How the data were processed

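H3K27ac CUT&RUN peaks of 2 mesothelium and 2 epithelium libraries were analysed, grouped by sample titles. Each list deposited by the authors holds broad peaks of 1 library. The submitters' processing notes name cutadapt 4.8, Bowtie2 2.5.3, MACS2 2.2.9.1, DiffBind 3.6.5, bedtools 2.31.1 and build mm10, without roles. The sources used here give neither the caller's threshold nor its control. The score column that the authors deposited repeats 10 times the −log10 q, cut to whole numbers, and played no role. The fold enrichment that the authors deposited is a ratio over background as their caller estimates it. Peaks were described and filtered by the −log10 q that the authors deposited. Lists hold no counts or depth, so no count model or test was run. Intervals served only as limits for calling a value moved by another setting.

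Peaks were merged and set against RefSeq genes of GRCm38.p6 (matplotlib 3.10.9, scipy 1.17.1, numpy 2.4.6 and pandas 2.3.3 under Python 3.11.15). The rule was checked base by base on 2402 simulated regions, of which 0 differed. Genes were named by rule: the 10 hosts with the most regions, the 10 regions highest in fold and the 10 highest in covered length by the lower library, up to 4 hosts a list by covered length and every host of some lists, regions with −log10 q of at least 4 in both libraries, and the 4 hosts of both patterns with the most covered length. Disp1, Sufu, Aldh1a1, Adam10 and Arhgap29 fall outside it and were named after their values were seen. The members and the 21 lists (473 symbols, all matched) were chosen with earlier results of these data known. The planned motif search in the regions was not run, since no genome sequence was used here. A few genes that met the naming rule are not reported here.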

Additional observations from a re-analysis of the deposited data

How the results depend on the processing

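No paired analysis was possible because no value comes from a test and nothing in the labels ties same-numbered libraries. In the order of region count, ratio to the crossed mean, hosts, median width, share of hosts with longer mesothelial gene ends and rank correlation of folds, the main values were 1961, 1.84, 1347, 1588 bp, 24.8% and 0.0947. Only peaks with −log10 q of at least 2 gave 824 regions, a ratio of 2.98, 669 hosts, 2088.5 bp and a correlation of 0.0372. At −log10 q of at least 4 there were 13 regions in 13 hosts, a ratio of 3.71, gene ends at 0% and a correlation of -0.0275. Only peaks of at least 1 kb gave 801 regions, a ratio of 2.28, 638 hosts, 2550 bp and 21.4%. Presence over 50% of a region gave 846 regions, 702 hosts, 1306.5 bp and 0.142. Equal peak numbers per library gave a ratio of 2.15. A −log10 q of at least 1.5, chosen after seeing the data, gave a ratio of 2.83, 1770 bp and 28.2%. Without 1 library the ranges were 2619 to 15607 regions, ratios of 1.34 to 9.20, 1668 to 5573 hosts, 540 to 1688 bp and 34.2% to 48.3%. Without mesothelium replicate 1 the count was 15607 and without replicate 2 it was 14385, since 1 mesothelium peak then suffices by construction. Without epithelium replicate 1 the ratio was 1.42 and without replicate 2 it was 1.34. Other gene-end distances (1 or 5 kb), merging within 500 bp, coding gene ends only, whole regions inside genes and touching peaks kept apart (the last chosen after seeing the data) moved none of these values beyond the limits used: 1.5 times for counts, 1 SD over the crossed patterns for the ratio, 1 SD between the mesothelium libraries for width, and 95% intervals of 22.4% to 27.4% (Wilson) for gene ends and 0.0507 to 0.138 (Fisher z) for the correlation. Host counts of the 21 lists moved in 17 at −log10 q of at least 4, 13 with peaks of at least 1 kb, 10 with presence over 50% and 8 at −log10 q of at least 2. At the last setting hosts fell from 5 to 2 among mesothelial markers and from 13 to 7 among matrix genes. They fell from 11 to 3 among axon guidance, 5 to 1 among retinoic acid and 5 to 2 among WNT genes. The 13 lists that did not move included mesodermal transcription factors (9 to 8), hedgehog genes (6 to 4) and TGF-beta and BMP genes (9 in both). Depth is not given in the lists, so absence of an epithelial peak cannot be told apart from low signal.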

Other observations

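The X chromosome held 14 of the mesothelium-only interior regions, 0.304 per Mb of coding gene, against 1.44 to 2.32 per Mb on the autosomes. Epithelium-only interior regions showed the same order, with 0.652 per Mb on X, against 1.78 to 2.81 on the autosomes. The Y chromosome held none of either kind. The sexes of the pooled embryos are not given in the labels.

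Of 24 motifs counted in the 55 internal promoter windows, TGCGTGGG, the motif listed for WT1, was found in 5 windows (9.09%), against 0.789% of all promoter windows. It was picked after the values were seen and was not tested. The 5 windows belong to 3 of the 43 regions (6.98%), in Gphn, Paox and Smim14, and windows of the same region overlap. CAAGTG, the motif listed for NKX2 factors of lung epithelium, was found in 13 of the 55 windows (23.6%), against 11.6% of all promoter windows. This motif was also picked after the values were seen and was not tested. It was counted over windows, some of which overlap, and not over regions.

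Several hosts of at least 4 regions outside the lists held no epithelium-only, crossed or all-library region, and are named after their values were seen. Palld, which encodes the actin-bundling protein palladin, held 5 regions, with 11.4 and 16.525 kb covered in mesothelium, against 7.54 and 5.20 kb in epithelium. Sntb2, a syntrophin gene, held 5, with 10.5 and 15.8 kb in mesothelium, against 1.63 and 2.51 kb in epithelium. Sulf1, which trims heparan sulfate on the cell surface, held 4, with 17.1 and 20.4 kb in mesothelium, against 0.392 and 3.07 kb in epithelium.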
